A study of Arabidopsis thaliana with 10 samples.

Results

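Etiolated seedlings of the Arabidopsis thaliana mutants hls1 and pifq were set directly against each other, gene by gene. HOOKLESS1 (HLS1) encodes a putative N-acetyltransferase needed for the bend of the apical hook, and pifq is the usual name of the quadruple mutant of the basic helix-loop-helix factors PIF1, PIF3, PIF4 and PIF5. Both mutants were in the Col-0 background, and the Col-0 wild type is given as context. All seedlings were 3 days old, had been kept in darkness at 22 °C after a short light pulse for germination, received no treatment and were collected without their roots. Each genotype had 2 biological replicates, so the comparison rests on 4 of the 10 samples of the series. The labels name neither the alleles nor the number of seedlings pooled. The table holds 1 RPKM value (a read count per length of gene and per sequencing depth) per gene and genotype, taken as the authors' mean over the 2 samples, so no spread between replicates, error or test can be given. The genes compared were those with an RPKM of 1 or more in either mutant, 18070 of 33559 identifiers. A gene was called higher or lower in hls1 where log2(RPKM + 1), hls1 less pifq, differed by 1 or more, which is a factor of 2 in RPKM + 1, and all differences below are on this scale.

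In darkness a seedling lengthens its hypocotyl, keeps its cotyledons closed behind the hook and holds back chlorophyll synthesis and the photosynthetic apparatus. PIF proteins accumulate in the dark and drive this programme by inducing growth genes and repressing greening genes, so seedlings without them partly follow the light programme without light. HLS1 acts downstream of ethylene signalling, through EIN3 and EIL1, on the unequal distribution of auxin that bends the hook, and hls1 seedlings lack the hook. Both mutants are known for a missing or opened hook, and pifq is also known for opened cotyledons and a short hypocotyl in the dark.

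The log2 difference was 1 or more in favour of hls1 for 1880 genes, 10.4% of those compared, and in favour of pifq for 1346 genes, 7.45%. The median difference over all compared genes was 0.10, with quartiles of -0.36 and 0.53, and 53.9% of the genes differed by less than 0.5 either way. Of the called genes 58.3% were higher in hls1, a share that depended on the scaling. It was 49.3% after median-of-ratios scaling, 51.5% after quantile normalization and 68.2% after organelle transcripts and ribosomal RNA were left out and both columns were rescaled to the same sum. The direction of the differences also depended on how abundant a transcript was. Among the 7427 genes whose higher value lay between 1 and 10 RPKM, 8.72% were higher and 5.66% lower in hls1. Among the 161 genes at 1000 RPKM or more, 19.3% were higher and 40.4% lower.

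Transcripts of the mutated genes were read first. PIF3 was at 32.8 RPKM in hls1, 5.61 RPKM in pifq and 35.1 RPKM in Col-0, a difference of 2.35. PIF5 was at 16.0 RPKM in hls1, 1.600 RPKM in pifq and 4.34 RPKM in Col-0, a difference of 2.71. Both were thus low in the mutant that lacks their products. PIF1, at 22.8 RPKM in hls1, 18.18 RPKM in pifq and 19.0 RPKM in Col-0, and PIF4, at 9.81 RPKM in hls1, 8.69 RPKM in pifq and 4.36 RPKM in Col-0, differed by 0.31 and 0.16 and did not mark pifq. HLS1 was at 6.28 RPKM in hls1, 7.16 RPKM in pifq and 11.2 RPKM in Col-0, a difference of -0.16, so the column labelled hls1 could not be told from pifq by this transcript. A mutant allele can leave its transcript in place, and the level then checks nothing. The genotype labels were therefore checked by transcript for pifq alone.

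**Figure D1:**
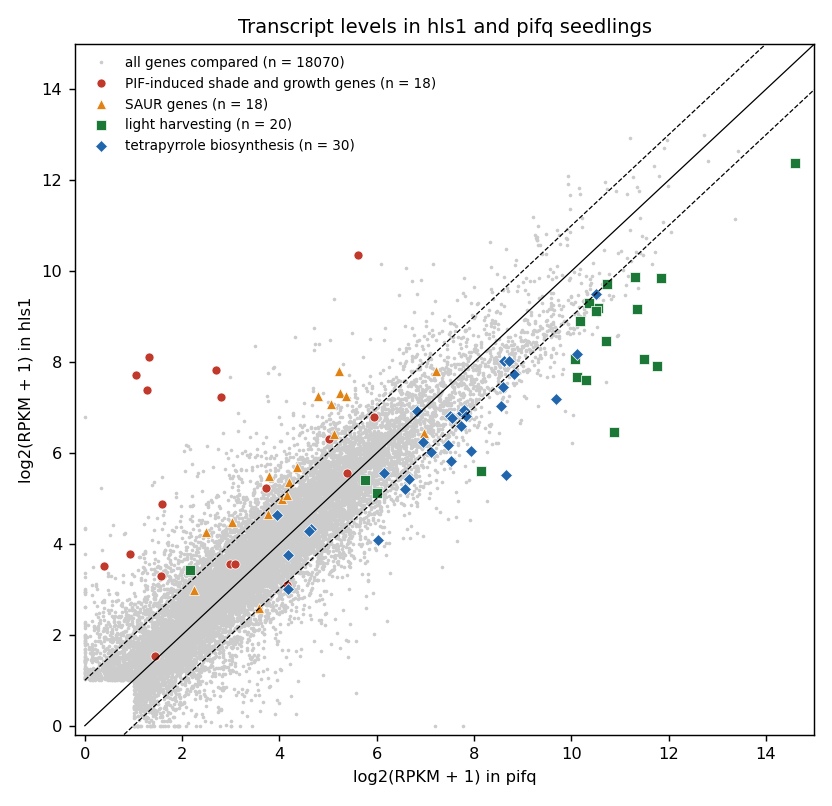
Level of each of the 18070 genes compared, as log2(RPKM + 1), in hls1 (vertical axis) and pifq (horizontal axis), each point the authors' mean of 2 samples. The solid line marks equal levels and the dashed lines a difference of 1 either way; PIF-induced and SAUR genes lie mostly above the band and light-harvesting and tetrapyrrole genes mostly below it.

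Of the lists with compared members, that of genes known to be induced by PIF proteins had the median furthest from 0. The lists were chosen with earlier results of these data known. The part of that choice in this rank, or in those of other lists, was not tested. The list of PIF-induced shade and growth genes had 18 members, of which 12 were higher and 1 lower in hls1, and the median difference was 2.29, against 0.10 over all genes compared. Set against Col-0, the list had a median difference of 0.70 for hls1 and of -1.97 for pifq. The largest difference among all named genes was that of FLP1 (chr4:15230008-15230382 in RefSeq TAIR10.1, as all positions here), a homologue of the flowering-time gene FPF1, with 276 RPKM in hls1, 1.49 RPKM in pifq and 105 RPKM in Col-0, a difference of 6.80. PIL1 (chr2:19295431-19297858), a bHLH gene strongly induced by shade, followed with 208 RPKM in hls1, 1.08 RPKM in pifq and 54.9 RPKM in Col-0, a difference of 6.65. HFR1 (chr1:465616-467880), an atypical bHLH protein that binds and restrains PIFs, was at 167 RPKM in hls1, 1.42 RPKM in pifq and 47.99 RPKM in Col-0, a difference of 6.12. For all 3 genes the level in hls1 stood above that in Col-0, while pifq lay close to the lower limit of 1 RPKM.

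The other large differences of the list covered hormone metabolism, walls and transcription factors. ST2A, a sulfotransferase acting on hydroxyjasmonate, was at 226 RPKM in hls1, 5.45 RPKM in pifq and 58.7 RPKM in Col-0, a difference of 5.14. XTH15, a xyloglucan endotransglucosylase/hydrolase of the cell wall, was at 1307 RPKM in hls1, 48.2 RPKM in pifq and 1922 RPKM in Col-0, a difference of 4.73. ATHB2 (HB-2), the class II homeodomain-leucine zipper gene long used as a shade marker, was at 150.3 RPKM in hls1, 5.95 RPKM in pifq and 77.7 RPKM in Col-0, a difference of 4.45. Its relatives ATHB4, HAT1 and HAT2 were higher in hls1 by 1.74, 1.51 and 1.28. HAT3, of the same class, was the 1 member lower in hls1, with 7.52 RPKM in hls1, 16.8 RPKM in pifq and 24.3 RPKM in Col-0, a difference of -1.07, and it lost the call when organelle transcripts and ribosomal RNA were left out and both columns were rescaled to the same sum. CKX5, a cytokinin oxidase, differed by 3.3, and PIL2, a PIF-related bHLH gene also called PIF6, by 3.12. BBX23 was at 12.7 RPKM in hls1, 0.909 RPKM in pifq and 114 RPKM in Col-0, a difference of 2.84, so that its level in hls1 was itself far below that in Col-0. The 5 members not past the threshold were named after their values were seen. The auxin synthesis genes YUC8 and YUC9 differed by 0.59 and 0.08, PAR1 by 0.18, PKS4 by 0.47 and APD7 by 0.84. In pifq 2 of the 18 members stood above Col-0. APD7 was at 60.9 RPKM in pifq and 19.7 RPKM in Col-0, and YUC9 at 1.72 RPKM in pifq and 0.75 RPKM in Col-0.

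**Figure D2:**
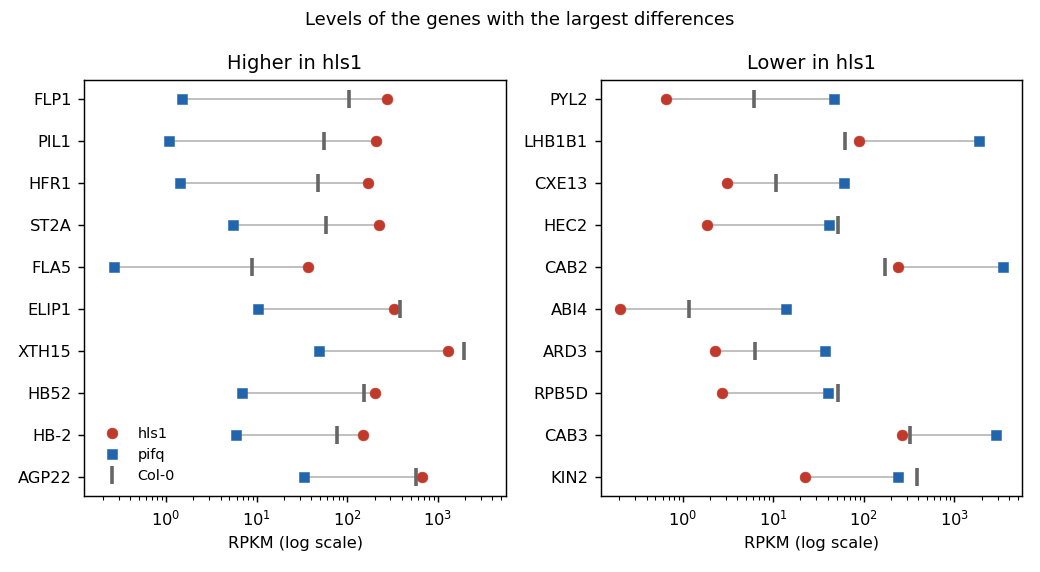
RPKM (log axis) in hls1, pifq and Col-0 of the 10 named genes with the largest differences each way, each marker the authors' mean of 2 samples and each grey line joining hls1 to pifq. HB-2 is ATHB2, and LHB1B1, CAB2 and CAB3 are LHCB1.4, LHCB1.1 and LHCB1.2. Among the higher genes Col-0 lies nearer to hls1 than to pifq, whereas among the lower ones it lies near pifq for HEC2, RPB5D and KIN2 and near hls1 for the 3 light-harvesting genes.

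Beyond these, the 10 largest differences in favour of hls1 held 4 genes of other groups. The rule counted only called genes with a symbol, at least 10 RPKM in the higher mutant and no value under 0.001 RPKM. ELIP1, an early light-induced protein of the thylakoid, was at 324 RPKM in hls1, 10.3 RPKM in pifq and 381 RPKM in Col-0, a difference of 4.85. HB52, a class I homeodomain-leucine zipper gene, was at 203 RPKM in hls1, 6.93 RPKM in pifq and 154 RPKM in Col-0, a difference of 4.69. FLA5, a fasciclin-like arabinogalactan protein, was at 36.6 RPKM in hls1, 0.263 RPKM in pifq and 8.97 RPKM in Col-0, a difference of 4.89. It lies at chr4:15223655-15224685, close to FLP1 at chr4:15230008-15230382, so these 2 differences may not be independent. AGP22, an arabinogalactan peptide gene, was at 669 RPKM in hls1, 33.6 RPKM in pifq and 576 RPKM in Col-0, a difference of 4.28.

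Under the same rule the 10 largest differences in favour of pifq were of mixed function. Over all genes compared, with those outside the rule, the lowest difference was -7.77. PYL2 (chr2:11094258-11095542), an abscisic acid receptor, was at 0.65 RPKM in hls1, 46.6 RPKM in pifq and 6.18 RPKM in Col-0, a difference of -4.85. ABI4, an AP2-type transcription factor of abscisic acid signalling, was at 0.202 RPKM in hls1, 13.98 RPKM in pifq and 1.17 RPKM in Col-0, a difference of -3.64. CXE13, a carboxylesterase, differed by -3.92, and ARD3, an acireductone dioxygenase of the methionine salvage cycle, by -3.54. These 4 genes were higher in pifq and lower in hls1 than in Col-0. HEC2, a HECATE bHLH gene, was at 1.87 RPKM in hls1, 41.4 RPKM in pifq and 51.5 RPKM in Col-0, a difference of -3.89. RPB5D, an RNA polymerase subunit gene, was at 2.71 RPKM in hls1, 40.4 RPKM in pifq and 51.3 RPKM in Col-0, a difference of -3.48. KIN2, a cold-responsive gene, was at 22.2 RPKM in hls1, 241 RPKM in pifq and 387 RPKM in Col-0, a difference of -3.39. For these 3 genes pifq lay nearer to Col-0 and the low value was that of hls1. LHCB1.4, LHCB1.1 and LHCB1.2 completed the 10.

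Auxin-responsive growth genes were higher in hls1. Aux/IAA genes encode short-lived repressors that auxin induces and removes, GH3 genes encode enzymes that conjugate auxin, and SAUR genes encode small proteins that promote cell expansion. Of 15 Aux/IAA and GH3 genes, 10 were higher and 0 lower in hls1, with a median difference of 1.47. The medians were 0.18 for hls1 less Col-0 and -1.13 for pifq less Col-0. IAA19 was at 363 RPKM in hls1, 56.8 RPKM in pifq and 319 RPKM in Col-0, a difference of 2.65. IAA7 was at 648 RPKM in hls1, 146 RPKM in pifq and 431 RPKM in Col-0, a difference of 2.15. IAA17 was at 432 RPKM in hls1, 104 RPKM in pifq and 384 RPKM in Col-0, a difference of 2.04. All 3 Aux/IAA genes had Col-0 levels nearer to hls1. IAA29, a gene that PIFs induce in shade, was at 14.7 RPKM in hls1, 2.26 RPKM in pifq and 26.5 RPKM in Col-0, a difference of 2.27, and IAA3 differed by 1.704. GH3.3, IAA5, IAA1 and GH3.6, chosen after their values were seen, had differences between -0.56 and -0.27.

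Among 18 SAUR genes 11 were higher and 0 lower in hls1, with a median difference of 1.31. The largest differences were in the SAUR19 subfamily, a tandem cluster on chromosome 5 whose members drive hypocotyl elongation. SAUR22 was at 222 RPKM in hls1, 36.3 RPKM in pifq and 166 RPKM in Col-0, a difference of 2.58. SAUR23 was at 151 RPKM in hls1, 26.7 RPKM in pifq and 145 RPKM in Col-0, a difference of 2.46. SAUR19 was at 158 RPKM in hls1, 36.8 RPKM in pifq and 156 RPKM in Col-0, a difference of 2.07. The neighbours SAUR20 and SAUR21 differed by 2.02 and 1.88. These genes are close copies, and how the authors' counting divided reads among them is not given, so the sum of a group is firmer than a single member. The 18 genes together summed to 1483 RPKM in hls1, 601 RPKM in pifq and 1265 RPKM in Col-0. SAUR17 was the exception nearest to a call in the other direction, at 5.01 RPKM in hls1, 11 RPKM in pifq and 73.0 RPKM in Col-0. Its difference of -0.999 fell just short of the threshold, and it was called lower with smaller pseudocounts, with median-of-ratios scaling and with quantile normalization. SAUR50, which opens the cotyledons and hook in light, was at 223 RPKM in hls1, 148 RPKM in pifq and 155 RPKM in Col-0, a difference of 0.59.

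The promoters of auxin-responsive and greening genes are shown because PIF proteins bind the G-box, CACGTG, and the related PBE-box, CACATG. Every promoter shown holds a match, and they are examples rather than a sample of their lists. SAUR20, SAUR23 and IAA17, also higher in hls1, held neither motif in the bases read. Most tetrapyrrole promoters held neither, as counted below. Each sequence is the 250 bases before the gene's annotated start, read from the RefSeq assembly TAIR10.1 on the strand of the gene, with matches to either motif in capitals, on either strand, so that CACATG can appear as CATGTG.
SAUR19, chr5:5963406-5963655, minus strand: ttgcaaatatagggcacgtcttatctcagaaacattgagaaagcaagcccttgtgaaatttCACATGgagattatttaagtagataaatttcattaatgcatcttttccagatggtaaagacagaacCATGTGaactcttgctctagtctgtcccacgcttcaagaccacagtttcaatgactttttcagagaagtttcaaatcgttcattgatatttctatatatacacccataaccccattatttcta
SAUR22, chr5:5975088-5975337, minus strand: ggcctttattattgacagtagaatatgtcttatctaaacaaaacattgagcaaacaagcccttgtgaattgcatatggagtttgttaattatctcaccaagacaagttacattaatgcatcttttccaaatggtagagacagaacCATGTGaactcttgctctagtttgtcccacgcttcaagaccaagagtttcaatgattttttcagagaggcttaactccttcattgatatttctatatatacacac
SAUR63, chr1:10305109-10305358, minus strand: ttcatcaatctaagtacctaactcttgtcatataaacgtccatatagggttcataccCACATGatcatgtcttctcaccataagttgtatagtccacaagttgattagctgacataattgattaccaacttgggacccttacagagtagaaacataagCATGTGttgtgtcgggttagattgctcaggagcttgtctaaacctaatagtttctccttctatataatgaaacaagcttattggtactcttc
IAA19, chr3:5263751-5264000, plus strand: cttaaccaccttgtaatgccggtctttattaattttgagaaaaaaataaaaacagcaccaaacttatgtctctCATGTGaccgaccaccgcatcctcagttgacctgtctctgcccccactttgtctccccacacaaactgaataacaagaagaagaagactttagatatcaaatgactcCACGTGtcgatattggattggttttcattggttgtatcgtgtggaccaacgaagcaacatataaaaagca
CRD1, chr3:21076255-21076504, plus strand: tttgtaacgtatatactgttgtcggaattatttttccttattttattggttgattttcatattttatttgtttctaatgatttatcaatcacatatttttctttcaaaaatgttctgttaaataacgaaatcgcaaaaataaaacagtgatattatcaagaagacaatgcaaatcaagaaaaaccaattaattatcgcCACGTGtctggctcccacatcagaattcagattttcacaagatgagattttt
CAO, chr1:16851272-16851521, minus strand: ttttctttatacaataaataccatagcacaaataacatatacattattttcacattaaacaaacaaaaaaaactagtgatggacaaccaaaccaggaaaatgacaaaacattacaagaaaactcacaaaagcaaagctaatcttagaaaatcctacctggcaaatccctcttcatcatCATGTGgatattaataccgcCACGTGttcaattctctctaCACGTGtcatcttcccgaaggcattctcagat
The match nearest to the start began 123 bases before it in SAUR19, 105 bases in SAUR22 and 92 bases in SAUR63, all of them PBE-boxes. IAA19 held a PBE-box 177 bases and a G-box 70 bases before the start. CRD1 held 1 G-box 52 bases before its start, and CAO held G-boxes at 52 and 32 bases with a PBE-box at 72 bases.

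Across the genes compared, each motif was found in a minority of promoters in both directions. A G-box was present in 118 of 1786 promoters of protein-coding genes higher in hls1, or 6.61%, in 110 of 1293 lower ones, or 8.51%, and in 1284 of all 17517, or 7.33%. A PBE-box was present in 270 promoters of the higher genes, or 15.1%, in 154 of the lower ones, or 11.9%, and in 1920 of all, or 10.96%. In the SAUR list 11 of 18 promoters, 61.1%, held a PBE-box and 0 held a G-box, but tandem copies share sequence and are not independent. None of the 18 promoters of the PIF-induced list held a G-box in this window and 3 held a PBE-box, among light-harvesting genes 4 of 20 held a G-box and 3 a PBE-box, and among tetrapyrrole genes 5 of 30 held a G-box and 2 a PBE-box. The 2 motifs differ at 1 base and cannot occupy the same position, and a match is a description of the sequence and not a binding site.

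**Figure D3:**
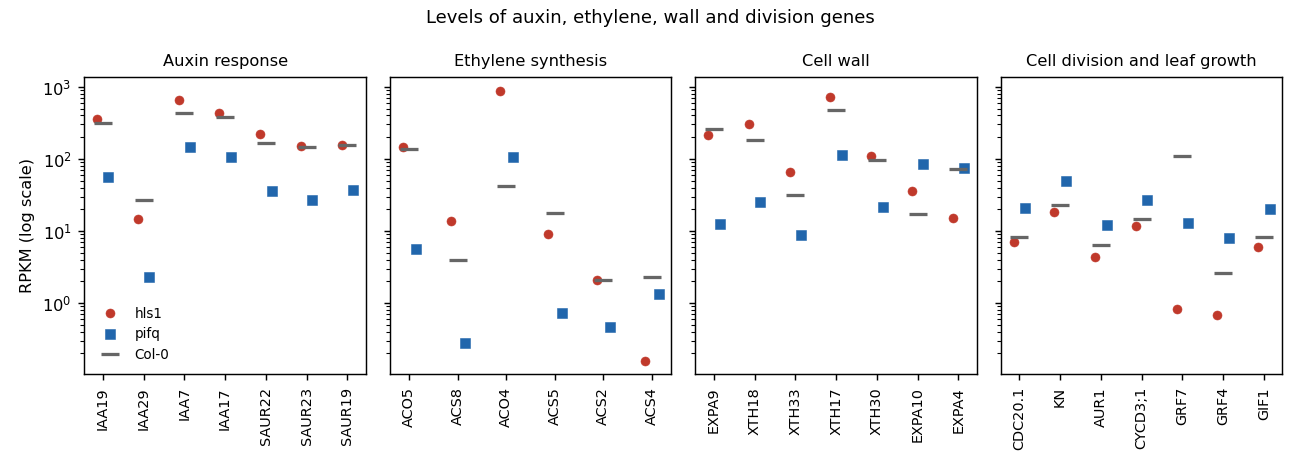
RPKM (log axis) in hls1, pifq and Col-0 of selected members of the auxin-response, ethylene-synthesis, cell-wall, cell-division and leaf-growth lists, each marker the authors' mean of 2 samples. The auxin-response genes shown lie higher in hls1 than in pifq with Col-0 near hls1, and the cell-division genes shown lie lower in hls1.

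Genes that move auxin were also more often higher than lower in hls1. Of 20 genes of auxin synthesis and transport 6 were higher and 0 lower, with a median of 0.61. The AGC kinases WAG1 and WAG2, which phosphorylate PIN carriers, were at 14.6 RPKM in hls1, 2.67 RPKM in pifq and 12.6 RPKM in Col-0 and at 30.2 RPKM in hls1, 8.75 RPKM in pifq and 27.1 RPKM in Col-0, with differences of 2.09 and 1.68. The influx carrier AUX1 was at 113 RPKM in hls1, 42.4 RPKM in pifq and 72.8 RPKM in Col-0, a difference of 1.39. ABCB transporters 21, 4 and 19 differed by 1.33, 1.16 and 1.12. PIN3, the efflux carrier most tied to hook bending, was at 122 RPKM in hls1, 75.4 RPKM in pifq and 79.2 RPKM in Col-0, a difference of 0.68, which was below the threshold. TAA1, the aminotransferase that opens auxin synthesis, differed by -0.23.

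Genes of ethylene synthesis included some of the larger differences in favour of hls1. Ethylene is made from S-adenosylmethionine by ACC synthases (ACS) and ACC oxidases (ACO). Of 12 biosynthesis genes compared, 6 were higher and 1 lower in hls1, with a median difference of 0.98. ACO5 was at 146 RPKM in hls1, 5.64 RPKM in pifq and 137 RPKM in Col-0, a difference of 4.47. ACO4 was at 885 RPKM in hls1, 104 RPKM in pifq and 41.6 RPKM in Col-0, a difference of 3.07. The level of ACO4 stood highest in hls1 and lowest in Col-0, while ACO5 in hls1 was near Col-0. ACS8 was at 13.7 RPKM in hls1, 0.278 RPKM in pifq and 3.97 RPKM in Col-0, a difference of 3.52, and ACS5 was at 9.02 RPKM in hls1, 0.716 RPKM in pifq and 17.7 RPKM in Col-0, a difference of 2.55. ACS4 was the 1 gene lower, at 0.157 RPKM in hls1, 1.35 RPKM in pifq and 2.299 RPKM in Col-0, a difference of -1.02, and both mutants were near or below the limit of 1 RPKM.

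Among 21 compared genes of ethylene signalling and response, 6 were higher and 1 lower in hls1, and the median difference was 0.78. Only 3 were higher after median-of-ratios scaling. The receptor genes ERS2, ERS1 and ETR2 differed by 1.15, 1.14 and 1.01. The transcription factor EIN3, at 108 RPKM in hls1, 57.2 RPKM in pifq and 84.0 RPKM in Col-0, and its paralogue EIL1, at 67.2 RPKM in hls1, 35.6 RPKM in pifq and 44.4 RPKM in Col-0, each differed by 0.90 and stayed under the threshold. EBF1, the F-box gene whose product degrades EIN3, differed by 1.04. EDF3, an ethylene response DNA-binding factor, was at 22.1 RPKM in hls1, 4.33 RPKM in pifq and 34.2 RPKM in Col-0, a difference of 2.11. The 1 lower gene, FTM1, a desaturase-family gene, was at 187 RPKM in hls1, 1671 RPKM in pifq and 393 RPKM in Col-0, a difference of -3.15, and pifq stood far above Col-0.

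Wall-loosening genes were more often higher than lower in hls1. Expansins (EXPA, EXPB) loosen the contacts between wall polymers, and XTH enzymes cut and rejoin xyloglucan. Of 29 compared members 15 were higher and 4 lower, with a median difference of 1.07, and their sum was 6964 RPKM in hls1, 2879 RPKM in pifq and 4481 RPKM in Col-0. EXPA9 was at 217 RPKM in hls1, 12.5 RPKM in pifq and 258 RPKM in Col-0, a difference of 4.01. XTH18 was at 305 RPKM in hls1, 25.3 RPKM in pifq and 182 RPKM in Col-0, a difference of 3.54, and its close copy XTH17, with which reads may be shared, was at 723 RPKM in hls1, 113 RPKM in pifq and 474 RPKM in Col-0, a difference of 2.66. XTH33 and XTH30 differed by 2.74 and 2.32. The most abundant member, XTH4, was at 2639.7 RPKM in hls1, 1009 RPKM in pifq and 1497 RPKM in Col-0, a difference of 1.39. In the other direction EXPA4 was at 15.2 RPKM in hls1, 75.3 RPKM in pifq and 72.1 RPKM in Col-0, a difference of -2.24. EXPB3 and XTH9 differed by -1.70 and -1.23, and EXPA10, at 36.04 RPKM in hls1, 83.7 RPKM in pifq and 17.0 RPKM in Col-0, by -1.19. EXPA4 in pifq was close to Col-0, whereas EXPA10 was highest in pifq and lowest in Col-0.

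Brassinosteroid genes leaned one way. All 12 genes had a positive difference, though that of DET2, 0.07 as deposited, turned to -0.03 under median-of-ratios scaling and -0.06 under quantile normalization. Of the 12, 4 were higher and 0 lower, and the median was 0.87. ROT3, a cytochrome P450 of brassinosteroid synthesis, was at 27.9 RPKM in hls1, 4.78 RPKM in pifq and 17.61 RPKM in Col-0, a difference of 2.32. BR6OX2, which makes the active hormone, was at 61.7 RPKM in hls1, 16.5 RPKM in pifq and 42.1 RPKM in Col-0, a difference of 1.84. BAS1, an inactivating enzyme, and BIN2, the kinase that holds the pathway off, differed by 1.26 and 1.16. Synthesis, inactivation and inhibition were thus all represented among the higher genes. Of 18 compared gibberellin genes 6 were higher and 1 lower, with a median of 0.44. GASA1, a gibberellin-responsive gene for a cysteine-rich peptide, was at 1148 RPKM in hls1, 142 RPKM in pifq and 388 RPKM in Col-0, a difference of 3.01. GA20OX3, a synthesis gene, was at 5.74 RPKM in hls1, 0.549 RPKM in pifq and 0.211 RPKM in Col-0, a difference of 2.121. The inactivating oxidase genes GA2OX2 and GA2OX8 differed by 1.37 and 1.06, the DELLA repressor genes GAI and RGL1 by 1.14 and 1.09, and GA2OX6, the 1 lower member, by -1.33.

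Light-harvesting genes had the lowest median of the 30 lists with compared members. These nuclear genes encode the chlorophyll-binding antenna proteins of photosystem II (LHCB) and photosystem I (LHCA), which seedlings normally make in light. Of 20 genes, 16 were lower and 1 higher in hls1, with a median difference of -1.997. The list summed to 12655 RPKM in hls1, 54618 RPKM in pifq and 11452 RPKM in Col-0, and 13 of 20 genes in hls1 and 19 of 20 in pifq were above Col-0. LHCB1.3 alone was at 5370.4 RPKM in hls1, 24893 RPKM in pifq and 5221 RPKM in Col-0, a difference of -2.21. LHCB1.4 was at 87.7 RPKM in hls1, 1875 RPKM in pifq and 61.3 RPKM in Col-0, a difference of -4.40. LHCB1.1 and LHCB1.2, neighbours of LHCB1.3 on chromosome 1, differed by -3.85 and -3.43. The LHCB1 genes are near-identical, and reads may be wrongly divided among them, but all 5 were lower in hls1.

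Other antenna genes showed the same direction. LHCA1 was at 193 RPKM in hls1, 1267 RPKM in pifq and 171 RPKM in Col-0, a difference of -2.71. LHCA4 was at 353 RPKM in hls1, 1685 RPKM in pifq and 368 RPKM in Col-0, a difference of -2.25, and LHCB3 was at 576 RPKM in hls1, 2605 RPKM in pifq and 563 RPKM in Col-0, a difference of -2.17. LHCB2.3 and LHCB2.2, a pair of the second antenna class, differed by -2.55 and -2.44. The minor antenna genes LHCB5, LHCB4.1 and LHCB4.2 had smaller differences of -1.43, -1.36 and -1.29. LHCB6, named after its values were seen, fell just short of the threshold with -0.998, at 848 RPKM in hls1, 1694 RPKM in pifq and 522 RPKM in Col-0. LHCB4.3, the rare member of the class, was the 1 gene higher in hls1, at 9.82 RPKM in hls1, 3.47 RPKM in pifq and 12.4 RPKM in Col-0, a difference of 1.28, and LHCA5 and LHCA6 differed by -0.35 and -0.88.

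Photosystem cores and electron carriers leaned the same way with smaller differences. Of 29 nuclear genes, 13 were lower and 0 higher in hls1, with a median of -0.93. The count was 8 after quantile normalization and also 8 when organelle transcripts and ribosomal RNA were left out and both columns were rescaled to the same sum. PETE1, a plastocyanin, was at 85.3 RPKM in hls1, 366 RPKM in pifq and 114 RPKM in Col-0, a difference of -2.09, and its more abundant copy PETE2 differed by -1.03. PSAD2, a photosystem I subunit that docks ferredoxin, was at 203 RPKM in hls1, 725 RPKM in pifq and 225 RPKM in Col-0, a difference of -1.83. PSBO2, of the oxygen-evolving complex, was at 128 RPKM in hls1, 374 RPKM in pifq and 148 RPKM in Col-0, a difference of -1.55. The paralogues PSAD1 and PSBO1 were more abundant and stayed under the threshold, with differences of -0.91 and -0.84. PSBY and PSAF differed by -1.52 and -1.44. PSBS, the sensor of excess light, and FNR2, a ferredoxin-NADP reductase, were the 2 members with positive differences, of 0.19 and 0.23.

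The Calvin cycle list held 17 genes, of which 4 were lower and 0 higher in hls1, with a median of -0.79, and 2 were lower under quantile normalization, or when organelle transcripts and ribosomal RNA were left out and both columns rescaled to the same sum. FBA1, a plastid aldolase, was at 34.4 RPKM in hls1, 197 RPKM in pifq and 114 RPKM in Col-0, a difference of -2.48. GAPA1, a subunit of the plastid glyceraldehyde phosphate dehydrogenase, was at 396 RPKM in hls1, 1139.5 RPKM in pifq and 767 RPKM in Col-0, a difference of -1.52. Phosphoribulokinase, PRK, differed by -1.12, and its regulator CP12-1 by -1.005. Small subunits of Rubisco, which are close copies of one another, did not move as a unit. RBCS1A was at 6397 RPKM in hls1, 11028 RPKM in pifq and 8833 RPKM in Col-0, a difference of -0.79, and RBCS2B was at 3489 RPKM in hls1, 1927 RPKM in pifq and 3099 RPKM in Col-0, a difference of 0.86.

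The tetrapyrrole genes that were called, in the chlorophyll pathway and its branches, were all lower in hls1. Of 30 tetrapyrrole genes 17 were lower and 0 higher, with a median difference of -1.06. Against Col-0 the median was -0.43 for hls1 and 0.52 for pifq, and 5 of 30 genes in hls1 against 25 of 30 in pifq were above Col-0. HEMA1, the glutamyl-tRNA reductase that controls entry to the pathway, was at 64.9 RPKM in hls1, 244 RPKM in pifq and 109 RPKM in Col-0, a difference of -1.89. GUN4, an activator of magnesium chelatase, was at 130.2 RPKM in hls1, 374 RPKM in pifq and 147 RPKM in Col-0, a difference of -1.51, while the chelatase subunit genes CHLD, CHLI1, CHLI2 and GUN5 had differences between -0.59 and -0.70. CRD1, the cyclase that forms protochlorophyllide, was at 287 RPKM in hls1, 1112 RPKM in pifq and 449.9 RPKM in Col-0, a difference of -1.95. Its promoter and that of CAO, the chlorophyllide a oxygenase gene, are the 2 greening promoters shown above, and CAO differed by -1.22.

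The protochlorophyllide oxidoreductases need light to act, and the 2 forms that accumulate in etioplasts, PORA and PORB, followed another pattern. PORA was at 44.5 RPKM in hls1, 403 RPKM in pifq and 2089 RPKM in Col-0, a difference of -3.15. PORB was at 145 RPKM in hls1, 829 RPKM in pifq and 1481 RPKM in Col-0, a difference of -2.50. PORC, the form of light-grown plants, was at 16.1 RPKM in hls1, 64.2 RPKM in pifq and 39.8 RPKM in Col-0, a difference of -1.93. PORA and PORB were thus highest in Col-0, intermediate in pifq and lowest in hls1, whereas PORC was highest in pifq. HEME1, a uroporphyrinogen decarboxylase, also stood out, at 56.1 RPKM in hls1, 184 RPKM in pifq and 89.0 RPKM in Col-0, a difference of -1.70. The heme and bilin branch differed less, with 0.68 for the ferrochelatase gene FC1, -0.33 for FC2 and 0.09 for the heme oxygenase gene HY1, but HY2, which makes the phytochrome chromophore, was lower, with -1.18. FC1, FC2 and HY1 were picked out after their values were seen.

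**Figure D4:**
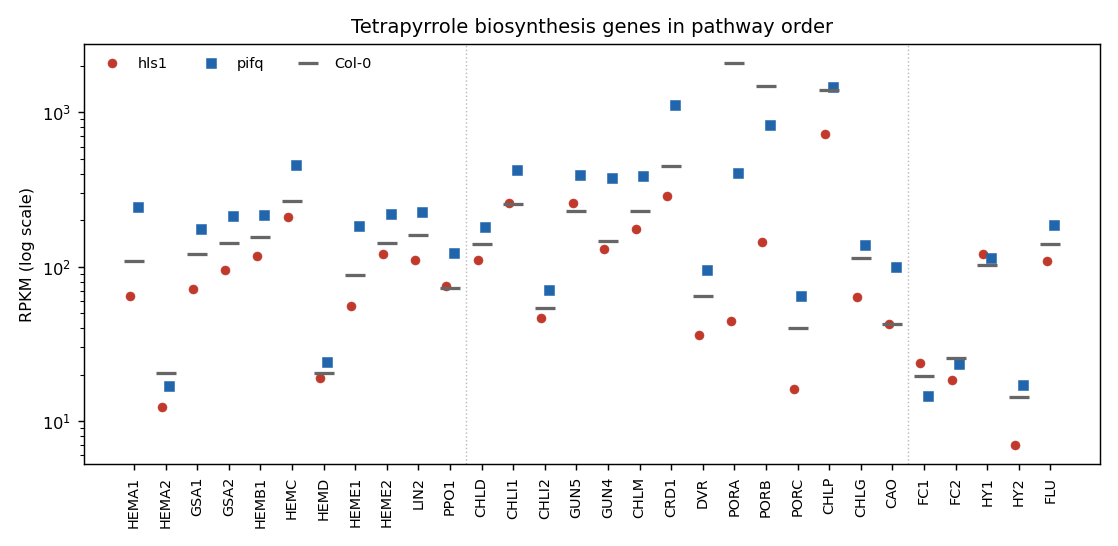
RPKM (log axis) in hls1, pifq and Col-0 of the 30 tetrapyrrole genes, from common steps (left of the first dotted line) to the chlorophyll branch (between the lines) and to the heme and bilin branch with the regulator FLU (right), each marker the authors' mean of 2 samples. The hls1 markers lie below pifq for 28 genes, and the Col-0 markers of PORA and PORB lie above both mutants.

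Carotenoid and plastid isoprenoid genes were nearly level. Of 15 genes 1 was lower and 0 higher, with a median of -0.26. The exception was ABA1, the zeaxanthin epoxidase, at 9.43 RPKM in hls1, 21.5 RPKM in pifq and 19.7 RPKM in Col-0, a difference of -1.11, a call that was lost when organelle transcripts and ribosomal RNA were left out and both columns rescaled to the same sum. PSY, the first enzyme of the carotenoid branch, was at 107 RPKM in hls1, 109.8 RPKM in pifq and 78.8 RPKM in Col-0, a difference of -0.04, and was named after its values were seen.

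Plastid-encoded transcripts did not follow the nuclear photosynthesis genes as a block. They summed to 2.39% of all RPKM in hls1, 2.61% in pifq and 2.72% in Col-0, plastid ribosomal RNA included. The ribosomal RNA identifiers ATCG01180, ATCG00950, ATCG01210 and ATCG00920 were at 1639 to 1720 RPKM in hls1 and 620 to 629 RPKM in pifq. All of these were called higher in hls1, so the sums do not describe the other plastid transcripts alone. The Col-0 sum also held ATCG01020 at 982 RPKM, which was listed at 0 in both mutants. Of 75 compared plastid identifiers 23 were higher and 13 lower in hls1, with a median of 0.49. The higher ones included ATCG00020, ATCG00270 and ATCG00280, for photosystem II proteins, with 1.46, 1.75 and 1.84. They also included ATCG00490, for the large Rubisco subunit, with 1.36, against the direction of most nuclear photosynthesis genes. The lower ones included ATCG00750, ATCG00820 and ATCG00780, for ribosomal proteins, with -1.65, -1.39 and -1.30. The count and median pool these, and no split by function was made. Of 37 mitochondrial identifiers 10 were higher and 3 lower, with a median of 0.64. Poly(A)-selected RNA was sequenced, and organelle transcripts are largely without stable poly(A) tails, so these levels describe what the selection let through. Nuclear ribosomal RNA, another remainder of the selection, took 2.40% of the RPKM sum in hls1, 1.28% in pifq and 4.27% in Col-0.

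The list of light-response regulators, which also held the light-induced genes ELIP1 and ELIP2, went both ways. Both ELIP genes were among those called higher. Of 26 genes 7 were higher and 3 lower in hls1, with a median of 0.62, and 5 were lower after median-of-ratios scaling or quantile normalization. The shares over all genes compared were 10.4% higher and 7.45% lower, and the counts were not tested against them. ELIP2 shared the pattern of ELIP1, at 213 RPKM in hls1, 14.9 RPKM in pifq and 469 RPKM in Col-0, a difference of 3.74, so that these light-induced genes were high in hls1 and in Col-0 and low in pifq, unlike the antenna genes to which they are related. PHYB, the main red-light receptor of green seedlings, was at 55.9 RPKM in hls1, 16.7 RPKM in pifq and 30.3 RPKM in Col-0, a difference of 1.69, and PHYA, the receptor that prevails in the dark, was at 331 RPKM in hls1, 172 RPKM in pifq and 335 RPKM in Col-0, a difference of 0.94. Transcripts of the bZIP factors HY5 and HYH, which promote greening, were at 22.7 RPKM in hls1, 8.33 RPKM in pifq and 37.8 RPKM in Col-0 and at 62.3 RPKM in hls1, 19.3 RPKM in pifq and 85.9 RPKM in Col-0, with differences of 1.34 and 1.64. The B-box genes BBX28 and BBX20 differed by 1.83 and 1.52. Both bZIP genes were higher in the mutant with the lower antenna transcripts. HEC1, related to HEC2, was at 19.6 RPKM in hls1, 70.1 RPKM in pifq and 54.8 RPKM in Col-0, a difference of -1.79, and the GATA factor GNC, which promotes chloroplast development, differed by -1.17. GLK1 and GLK2, named after their values were seen, differed by -0.39 and -0.38.

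**Figure D5:**
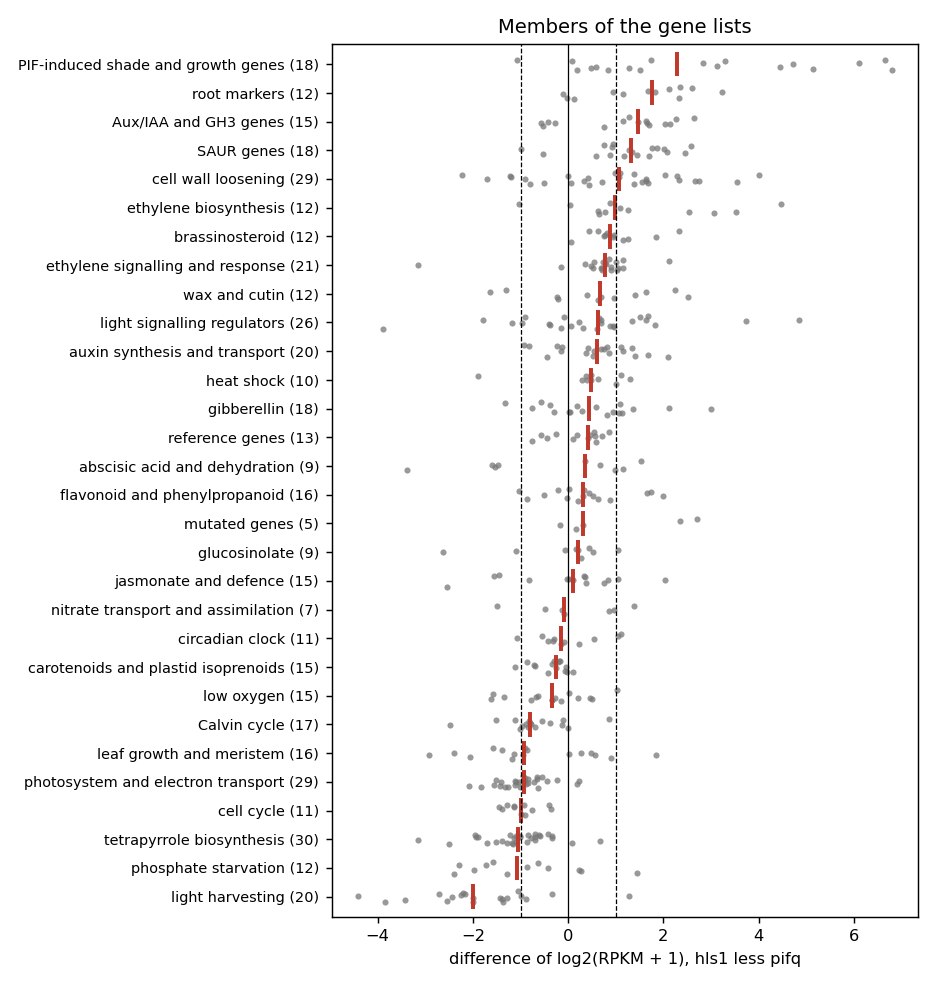
Difference of log2(RPKM + 1), hls1 less pifq, for each compared member of the 30 lists with compared members (grey points, spread vertically for visibility), with the list's median (red bar); the number of compared members stands in brackets. Dashed lines mark the threshold of 1 either way, and medians run from 2.29 for PIF-induced genes at the top to -1.997 for light harvesting at the bottom.

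Among cell-cycle genes, those that were called were lower in hls1. All 11 cell-cycle genes had a negative difference, 5 were lower and 0 higher, and the median was -0.99. The count was 8 after median-of-ratios scaling or quantile normalization. CDC20.1, an activator of the anaphase-promoting complex, was at 6.98 RPKM in hls1, 20.9 RPKM in pifq and 8.12 RPKM in Col-0, a difference of -1.46. KN, the cytokinesis syntaxin KNOLLE, was at 18.0 RPKM in hls1, 48.5 RPKM in pifq and 22.9 RPKM in Col-0, a difference of -1.38. The kinase genes AUR1 and CDKB1;1 and the cyclin gene CYCD3;1 differed by -1.29, -1.13 and -1.14. In bulk seedlings a smaller share of dividing cells and less of the transcript per cell cannot be told apart, and the same holds for every group described here.

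Of 16 compared leaf-growth and meristem genes 7 were lower and 1 higher, with a median of -0.93. Growth-regulating factors (GRF) with their partner GIF1 promote cell proliferation in leaves. GRF7 was at 0.824 RPKM in hls1, 12.9 RPKM in pifq and 108 RPKM in Col-0, a difference of -2.93, and GRF4 was at 0.677 RPKM in hls1, 7.88 RPKM in pifq and 2.63 RPKM in Col-0, a difference of -2.41. GRF5 was at 1.69 RPKM in hls1, 10.2 RPKM in pifq and 2.83 RPKM in Col-0, a difference of -2.06, and GIF1 was at 6.05 RPKM in hls1, 20.06 RPKM in pifq and 8.27 RPKM in Col-0, a difference of -1.58. Their order against Col-0 was mixed, since GRF7 was far higher in Col-0 than in either mutant while GRF4, GRF5 and GIF1 were highest in pifq. STM, the homeobox gene that maintains the shoot meristem, was the 1 higher gene, at 14.4 RPKM in hls1, 3.28 RPKM in pifq and 5.73 RPKM in Col-0, a difference of 1.84. Smaller pseudocounts of 0.5 and 0.1 raised the count of higher genes to 2 and 3, the added ones having low levels.

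More root markers were called higher than lower in hls1 although roots had been removed. Of 12 compared markers 8 were higher and 0 lower in hls1, with a median of 1.75, and the list of 21 summed to 428.6 RPKM in hls1, 123.0 RPKM in pifq and 374.1 RPKM in Col-0. The Casparian strip gene CASP1 was at 98.1 RPKM in hls1, 15.4 RPKM in pifq and 83.8 RPKM in Col-0, a difference of 2.60, and ESB1, of the same barrier, differed by 2.117. The tonoplast aquaporin gene TIP2;3 was at 20.8 RPKM in hls1, 1.33 RPKM in pifq and 27.3 RPKM in Col-0, a difference of 3.22. The root-tip and root-hair regulators WOX5, PLT1, PLT2 and RHD6 were at or near 0 in both mutants, none above 0.187 RPKM. Of the root-hair wall and growth genes, PRP3 was at 4.77 RPKM in hls1, 1.998 RPKM in pifq and 1.58 RPKM in Col-0, a difference of 0.94, under the threshold. EXPA7 was at 0.809 RPKM in hls1, 0.0382 RPKM in pifq and 0.222 RPKM in Col-0, COBL9 at 0.356 RPKM in hls1, 0.045 RPKM in pifq and 0.0791 RPKM in Col-0 and EXPA18 at 0.597 RPKM in hls1, 0.474 RPKM in pifq and 0.195 RPKM in Col-0, under the lower limit of 1 RPKM. SHR and SCR, which also act in shoots, differed by 0.12 and -0.10. The part of these markers in the other differences was not tested.

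Among stress and nutrient lists, phosphate-starvation genes had the median furthest from 0. Of 12 compared genes 6 were lower and 1 higher in hls1, with a median of -1.07. SPX1, a phosphate sensor, was at 16.6 RPKM in hls1, 91.7 RPKM in pifq and 29.0 RPKM in Col-0, a difference of -2.40, and the acid phosphatase gene PAP17 was at 19.0 RPKM in hls1, 97.0 RPKM in pifq and 25.8 RPKM in Col-0, a difference of -2.29. SQD1, which makes sulfolipid for plastid membranes, was at 49.5 RPKM in hls1, 167 RPKM in pifq and 80.01 RPKM in Col-0, a difference of -1.73, and SQD2 of the same path was called lower too, with -1.28. PS2 and SPX3 differed by -1.97 and -1.57. RNS1, a ribonuclease, was higher, by 1.45. For the 6 lower genes pifq lay above Col-0 in each case, and hls1 lay near or below it except for PS2 and SPX3, where it was slightly above.

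Abscisic acid and dehydration genes went both ways, with 2 higher and 4 lower of 9 compared and a median of 0.36. The shares over all genes compared were 10.4% higher and 7.45% lower, and these small counts were not tested against them. Lower in hls1 beside KIN2 were KIN1, RAB18 and LEA7, with differences of -1.59, -1.54 and -1.48. COR47, an abundant dehydrin, was at 483 RPKM in hls1, 166 RPKM in pifq and 459 RPKM in Col-0, a difference of 1.53, and RD29A differed by 1.16. The dehydration genes thus did not share a direction. None of 11 seed storage and late embryogenesis genes reached 1 RPKM in either mutant.

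Low-oxygen genes held 3 lower and 1 higher of 15, with a median of -0.33. Over all genes compared 10.4% were higher and 7.45% lower. The small counts of this list and those below were not tested against these shares. ADH1, alcohol dehydrogenase, was at 150.4 RPKM in hls1, 386 RPKM in pifq and 142 RPKM in Col-0, a difference of -1.35. HRA1, a trihelix factor that restrains the response, and HRE2, an ethylene response factor, differed by -1.57 and -1.62, and HRE1, a relative of HRE2, was higher by 1.04. The jasmonate and defence list held 2 higher and 3 lower of 15 compared, with a median of 0.09. AOS, allene oxide synthase, was at 30.4 RPKM in hls1, 6.68 RPKM in pifq and 4.78 RPKM in Col-0, a difference of 2.03, and JAZ1 differed by 1.05. AOC2 and AOC1, close copies of the allene oxide cyclase gene, and the lipoxygenase gene LOX2 were lower, with -2.55, -1.45 and -1.55, at levels under 11 RPKM. The further copies AOC4, the most abundant of the family at 45.3 RPKM in hls1, 35.0 RPKM in pifq and 46.3 RPKM in Col-0, and AOC3 differed by 0.36 and 0.75, under the threshold.

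Of 16 compared flavonoid and phenylpropanoid genes 3 were higher and 1 lower, with a median of 0.32. The higher ones belonged to the late, anthocyanin end: the MYB factor gene MYB75 was at 4.80 RPKM in hls1, 0.45 RPKM in pifq and 8.67 RPKM in Col-0, a difference of 2.0, and the enzymes LDOX and DFR differed by 1.74 and 1.65, all under 5 RPKM in hls1. MYB111, a regulator of flavonol synthesis, was lower, with -1.04. The glucosinolate list held 1 higher gene, MYB51, with 1.05, and 2 lower ones, CYP81F4 with -2.62 and CYP79B3 with -1.09, of 9 compared. Cuticle genes held 4 higher and 2 lower of 12. CYP86A4 and CER1, which make cutin monomers and wax alkanes, were higher by 2.52 and 2.25, and KCS1 and CER5, for chain elongation and wax export, by 1.63 and 1.401. LTP1, a lipid transfer protein, was lower, at 712 RPKM in hls1, 2209 RPKM in pifq and 514 RPKM in Col-0, a difference of -1.63, and so was LACS2, with -1.30.

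The remaining lists were short, and their counts are to be read against 10.4% higher and 7.45% lower over all genes compared. Clock genes held 2 higher, GI with 1.12 and ELF4 with 1.04, and 1 lower, CCA1 with -1.07, of 11 compared. Heat shock genes held 2 higher, HSP70-4 with 1.302 and HSP22.0 with 1.103, and 1 lower, HSP18.2 with -1.90, of 10. Nitrate genes held 1 higher, the transporter gene NRT1.5 with 1.38, and 1 lower, the nitrate reductase gene NIA1 at 77.3 RPKM in hls1, 219 RPKM in pifq and 108 RPKM in Col-0, of 7. None of the 13 reference genes commonly used for normalization was called, and their differences ran from -0.75 for UBQ5 to 0.86 for ACT2. Their median was 0.42, with 9 positive and 4 negative, against 0.10 over all genes compared. ACT2 was at 756 RPKM in hls1, 417 RPKM in pifq and 725 RPKM in Col-0 and the elongation factor gene AT5G60390 at 1159 RPKM in hls1, 1389 RPKM in pifq and 1181 RPKM in Col-0.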

How the data were processed

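Polyadenylated RNA of etiolated seedlings without roots was sequenced in 2 samples per genotype. The authors deposited RPKM values in 5 columns, 1 mean per genotype. BWA 0.7.7 and the TAIR10 build were used, per the submitters' processing notes; gene lengths, strand setting and counting tool: not given in the sources used here. A table of means gives no replicate spread, so no test was run. The lowest values in hls1 and pifq cluster at a step that may be 1 read in 1 sample; if so, a gene of 1 kb at 1 RPKM holds about 21.7 and 26.3 reads over both samples. The deposited description columns did not match their identifiers and were not used. The RPKM values were checked against gene type: 0 of 623 tRNA genes reached 1 RPKM on their own lines, against 300 when read 1 line off.

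With Python 3.11.15 and pandas 2.3.3, log2(RPKM + 1) was computed, with a minimum of 1 RPKM in either mutant and a threshold of 1; a difference on this scale understates the change of low genes. Symbols and promoters came from RefSeq TAIR10.1, in which 17909 of the compared identifiers were found. The 31 gene lists with 530 genes, and the comparison itself, were chosen with earlier results of these data known. By rule the text names the 5 mutated genes, the top 10 differences in each direction among called genes with a symbol, at least 10 RPKM in the higher mutant and no value under 0.001 RPKM, and up to 5 called members of each list each way. Members under the threshold, and further called members, were chosen after their values were seen. Alternatives covered pseudocounts, filters, 3 scalings, the threshold and genes listed at 0. The calculation was tested on simulated data.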

Additional observations from a re-analysis of the deposited data

How the results depend on the processing

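Without values per sample no result has an error, so neither the calls nor the medians can be set against the spread between replicates. No paired analysis was possible because each genotype is deposited as 1 mean. With a threshold of 2 on the log2 scale, 311 genes were higher and 193 lower in hls1, against 1880 and 1346 at a threshold of 1. Members of the lists then counted 45 higher and 25 lower, against 114 and 98, and named genes 43 higher and 25 lower, against 81 and 69. The median over all genes, 0.10 as deposited, was -0.006 after quantile normalization, a shift of -0.10, and 0.22 when organelle transcripts and ribosomal RNA were left out and both columns rescaled to the same sum, a shift of 0.12; the 2 changes of that setting were not tried apart. The higher and lower counts were 1614 and 1517 under quantile normalization, 1582 and 1624 under median-of-ratios scaling and 2266 and 1056 with organelle transcripts and ribosomal RNA left out and the columns rescaled. With pseudocounts of 0.5 and 0.1 the counts were 2169 and 1553, and 2457 and 1773. With a minimum of 5 RPKM they were 1511 and 1112, and without genes listed at 0 they were 1813 and 1306. No called gene among those named by rule changed direction under these settings. Of 473 compared members 16 changed sign under median-of-ratios scaling, 20 under quantile normalization and 15 with organelle transcripts and ribosomal RNA left out and the columns rescaled; none of them was called, and their differences as deposited were at most 0.44 in size. Of 155 named genes 7 lost the call under median-of-ratios scaling, 8 under quantile normalization and 8 with organelle transcripts and ribosomal RNA left out and the columns rescaled; the cause was not tested. Genes near 1 RPKM rest on few reads and are the least certain.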

Other observations

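The groups below were chosen after the values had been seen and are descriptions with no test. They were formed by gene symbol or product name, except for 3 genes of stored-lipid use that were picked singly. Arabinogalactan proteins and fasciclin-like arabinogalactan proteins are glycoproteins of the cell surface. Of 42 compared genes with an AGP or FLA symbol 20 were higher and 0 lower in hls1 than in pifq, with a median difference of 0.96, and they summed to 20457 RPKM in hls1, 7244 RPKM in pifq and 13901 RPKM in Col-0. AGP12 was at 3874 RPKM in hls1, 972 RPKM in pifq and 1917 RPKM in Col-0, a difference of 1.99. AGP13 was at 373 RPKM in hls1, 18.9 RPKM in pifq and 232 RPKM in Col-0, a difference of 4.23, and FLA13 was at 429.8 RPKM in hls1, 25.1 RPKM in pifq and 266 RPKM in Col-0, a difference of 4.05. Genes annotated to the peroxidase superfamily held 15 higher and 0 lower of 36, with a median of 0.64. The label covers class III peroxidases, which act in the wall, but also takes in DOX1, which is not of that class. PER64, a peroxidase of the Casparian strip, was at 63.8 RPKM in hls1, 12.1 RPKM in pifq and 55.1 RPKM in Col-0, a difference of 2.31.

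In the other direction, the called genes of plastid transcription and of chaperonins were lower in hls1, as were 3 picked genes for the use of stored lipid. Of 14 genes with a PTAC symbol, for proteins found with the plastid transcription machinery, 7 were lower and 0 higher, with a median of -1.01. PTAC12 was at 22.7 RPKM in hls1, 59.3 RPKM in pifq and 55.9 RPKM in Col-0, a difference of -1.35. The chaperonin genes CPN60A, CPN20 and CPN60B were lower too, CPN60A at 205 RPKM in hls1, 786 RPKM in pifq and 591 RPKM in Col-0, a difference of -1.93, and the chaperonin gene CPN10 differed by -0.74, under the threshold. Isocitrate lyase (ICL) and malate synthase (MLS) turn stored lipid towards sugar through the glyoxylate cycle, and PCK1 continues that path. ICL was at 2277 RPKM in hls1, 10614 RPKM in pifq and 6042 RPKM in Col-0, a difference of -2.22, and MLS was at 113 RPKM in hls1, 1054 RPKM in pifq and 391 RPKM in Col-0, a difference of -3.21. PCK1 differed by -1.05. These 3 genes were picked singly after the values were seen, and other genes of the path were not read as a group.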
